A study of Mus musculus with 6 samples.

Results

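TRiC, also called CCT, is the chaperonin of the eukaryotic cytosol, and the 8 genes described here encode its subunits: Tcp1, Cct2, Cct3, Cct4, Cct5, Cct6a, Cct7 and Cct8. They were chosen by name as the 8 subunits of the complex, by a rule that uses no measured value but with earlier results of these data known, and all 8 were found among the 23337 genes of the count table. The cells were primary liver sinusoidal endothelial cells from mice, a fenestrated endothelium that forms the wall of the liver's capillaries, and their RNA was sequenced. Cells of both groups were purified with immunomagnetic beads, plated on collagen IV and deprived of serum. In 3 stretch libraries, replicates 1, 2 and 4, the cells were exposed to 4% cyclic stretch at 1 Hz with a Flexcell device, whose flexible membrane is pulled under the cells. In 3 control libraries, replicates 2, 3 and 4, the cells stayed unstretched. How long the stretch lasted, the strain, age and number of the mice, and whether the libraries came from separate isolations are not stated in the labels, so p-values measure only the spread between these libraries.

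TRiC is a barrel of stacked rings in which each subunit occupies its own fixed place. It takes up newly made proteins, closes over them with the energy of ATP and releases them folded. Actins and tubulins are its best known obligate clients, and prefoldin is the co-chaperone that hands them over. Work in yeast showed that the subunits differ in how tightly they bind ATP: the counterparts of Cct2, Cct4, Cct5 and Cct7 form the side of each ring that binds it tightly, and those of Tcp1, Cct3, Cct6a and Cct8 the side that binds it weakly.

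The 8 genes lie on 8 different chromosomes, at chr17:12916465-12925067 for Tcp1, chr10:117050998-117063814 for Cct2, chr3:88297116-88321767 for Cct3, chr11:22990593-23003336 for Cct4, chr15:31590884-31601804 for Cct5, chr5:129787385-129794500 for Cct6a, chr6:85451505-85468477 for Cct7 and chr16:87483325-87495869 for Cct8, as positioned in the deposited table (GRCm38, named in the submitters' processing notes). Cct2, Cct5 and Cct8 are on the minus strand and the other 5 on the plus strand. Because the 8 genes moved together, the RefSeq windows around their starts (GRCm38.p6, 250 bases before to 50 bases after the start) were read for 4 short motifs on both strands. Windows were found for Tcp1, Cct2, Cct3, Cct5, Cct6a, Cct7 and Cct8. The ETS-type motif CCGGAAG was in the windows of Tcp1, Cct2 and Cct8, 3 of 7, and in 8.86% of the 32851 windows of all genes. CCAAT was in those of Tcp1, Cct3, Cct6a and Cct7, 4 of 7, and in 37.4% of all windows. A heat shock element core, GAANNTTC or TTCNNGAA, was in those of Cct5 and Cct6a, 2 of 7, and in 15.1% of all windows. The E-box CACGTG was in 0 of 7 and in 7.15% of all windows. None of the 4 motifs was shared by all 7 windows, and a match of letters is neither a binding site nor a cause. The stretches below are the parts of 4 windows that lie outside every annotated exon, given 5′ to 3′ on the strand of the gene to show where the matches stand. They are chr10:117063853-117064102 (minus) for Cct2, chr16:87495874-87495998 (minus) for Cct8, chr3:88297000-88297115 (plus) for Cct3 and chr6:85451284-85451504 (plus) for Cct7. Capitals mark CCGGAAG, or its reverse complement CTTCCGG, in Cct2 and Cct8, and ATTGG, the reverse complement of CCAAT, in Cct3 and Cct7.
Cct2: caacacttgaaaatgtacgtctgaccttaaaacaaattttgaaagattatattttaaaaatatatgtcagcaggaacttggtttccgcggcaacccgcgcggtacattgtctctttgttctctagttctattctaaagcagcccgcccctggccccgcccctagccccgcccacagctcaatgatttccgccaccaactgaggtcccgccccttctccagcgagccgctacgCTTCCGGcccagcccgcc
Cct8: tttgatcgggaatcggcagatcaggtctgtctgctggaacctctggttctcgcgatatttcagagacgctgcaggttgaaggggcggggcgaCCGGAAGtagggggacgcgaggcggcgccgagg
Cct3: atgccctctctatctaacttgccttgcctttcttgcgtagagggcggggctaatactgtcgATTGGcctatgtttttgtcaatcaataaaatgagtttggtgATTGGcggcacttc
Cct7: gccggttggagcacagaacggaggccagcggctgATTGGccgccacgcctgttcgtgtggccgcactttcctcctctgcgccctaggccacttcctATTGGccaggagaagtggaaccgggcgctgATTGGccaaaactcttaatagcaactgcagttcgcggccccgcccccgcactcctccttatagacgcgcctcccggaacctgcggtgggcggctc

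The match in Cct2 began 18 bases before the start and that in Cct8 37 bases before it. Cct3 held CCAAT on the opposite strand 74 and 33 bases before its start, and Cct7 held it 187, 125 and 95 bases before its start.

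Total gene counts lay between 58503669 and 68489956 in stretch libraries and between 48948948 and 57923937 in control libraries. The 8 subunits had between 8507 and 25560 counts each in a library, so counting error alone gives 95% intervals of at most ±2.13% of a count. Scaled to library size as below, the subunits varied within a group by 0.740% to 4.89% in control and 0.985% to 4.71% in stretch libraries (SD over mean). The smallest of these spreads are of the size of counting error, and the larger ones exceed it. RNA was checked against marker lists in summed CPM (counts scaled to library size, here by the TMM method, which corrects the sizes for composition). General endothelial markers such as Pecam1 and Cdh5 summed to between 6628 and 7331 CPM in stretch and between 6726 and 7557 CPM in control libraries. Of these 6 markers Kdr, Tek, Tie1 and Egfl7 were called lower, at log2 fold changes between -0.41 and -0.20, and none higher. Sinusoidal markers summed to between 5612 and 6572 CPM in stretch and between 7737 and 8807 CPM in control libraries. Of these, 7 of 8 were called lower, all but Lyve1, whose log2 fold change was 0.13. Their median log2 fold change was -0.74, and the lowest was -2.17 for Maf. Hepatocyte markers summed to between 91.9 and 484.1 CPM in stretch libraries, the highest in replicate 1, and to between 30.7 and 69.9 CPM in control libraries, and 8 of 8 were called higher. Macrophage markers summed to between 108.6 and 146.1 CPM in stretch and between 77.8 and 92.5 CPM in control libraries, with 5 of the 6 tested called higher. Cholangiocyte markers summed to between 82.4 and 111.9 CPM in stretch and between 61.1 and 81.8 CPM in control libraries. Stellate cell markers summed to between 60.0 and 100.01 CPM in stretch and between 75.4 and 86.0 CPM in control libraries, and lymphocyte markers stayed under 0.36 CPM in every library, with 3 of 6 at 0. In bulk RNA, fewer cells of a type and less RNA per cell cannot be told apart.

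All 8 subunit genes rose with stretch, by 1.24-fold to 1.34-fold, and the 3 stretch libraries lay above the 3 control libraries for each of them. Of all 14222 genes tested, 21.4% were called higher (edgeR quasi-likelihood test, Benjamini-Hochberg adjusted p under 0.05), 22.6% were called lower, 26.7% had every stretch library above every control library in CPM, and 55.9% had groups that did not overlap in either direction. All 8 were called higher in this test and in DESeq2, and as all rose, none could be called lower. Summed over the 8 genes, CPM were 2555, 2466 and 2612 in stretch libraries 1, 2 and 4, against 1952, 2024 and 1934 in control libraries 2, 3 and 4. The means were 2544 ± 73.7 CPM in stretch and 1970.3 ± 47.6 CPM in control libraries (SD, n = 3 each), a ratio of 1.29. The 8 genes together took 0.246% of all counts in stretch and 0.203% in control libraries.

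On the side of the ring that binds ATP tightly, Cct2 encodes the beta subunit, which has also been described as a receptor for the autophagy of protein aggregates. It had 407.1, 376.5 and 400.1 CPM in the stretch libraries, against 304.2, 311.7 and 306.5 CPM in the control libraries. The lowest stretch library was replicate 2, 64.8 CPM above the highest control library, the widest gap of the 8 genes. Cct2 rose 1.28-fold, or by 0.36 ± 0.05 on the log2 scale (SE here and below; edgeR adjusted p = 0.000506).

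Cct4, the delta subunit, had 314.7, 305.3 and 314.7 CPM in the stretch libraries and 246.0, 240.1 and 238.7 CPM in the control libraries. Libraries of a group lay close together and the groups were apart. It rose 1.29-fold (log2 0.37 ± 0.04; edgeR adjusted p = 0.000256), the smallest adjusted p of the 8.

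Cct5, the epsilon subunit, in which a human mutation causes a hereditary sensory neuropathy, had 347.4, 326.7 and 358.7 CPM in the stretch libraries. Its control libraries had 261.3, 275.7 and 256.4 CPM. Stretch replicate 2 was again the lowest of its group, and control replicate 3 the highest of the controls. Cct5 rose 1.302-fold (log2 0.38 ± 0.05; edgeR adjusted p = 0.000682).

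Cct7, the eta subunit, had 332.4, 327.9 and 354.5 CPM in the stretch libraries and 258.5, 275.2 and 261.8 CPM in the control libraries. Stretch replicate 4 was the highest, and the groups did not overlap. Cct7 rose 1.28-fold (log2 0.35 ± 0.05; edgeR adjusted p = 0.000772), the largest adjusted p of the 8.

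On the side that binds ATP weakly, Tcp1 encodes the alpha subunit, the first to be described, from the mouse t-complex. It had 293.7, 293.7 and 298.7 CPM in the stretch libraries, against 238.8, 236.2 and 239.5 CPM in the control libraries. The libraries of each group lay within a few CPM of each other. Tcp1 had the smallest change of the 8, 1.24-fold (log2 0.31 ± 0.04; edgeR adjusted p = 0.000471).

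Cct3, the gamma subunit, had 304.6, 303.4 and 316.0 CPM in the stretch libraries and 228.1, 246.2 and 225.2 CPM in the control libraries. Control replicate 3 stood above the other controls and below every stretch library. Cct3 rose 1.32-fold (log2 0.40 ± 0.05; edgeR adjusted p = 0.000401).

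Cct6a, the zeta subunit, had 207.4, 202.0 and 215.1 CPM in the stretch libraries and 163.6, 168.8 and 159.0 CPM in the control libraries. The gap between the lowest stretch and the highest control library was 33.2 CPM. Cct6a rose 1.27-fold (log2 0.35 ± 0.05; edgeR adjusted p = 0.000570). Its paralogue Cct6b, a zeta subunit known from testis, was not tested, with counts of 6, 8 and 6 in the stretch and 7, 3 and 0 in the control libraries.

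Cct8, the theta subunit, had 347.4, 330.2 and 354.2 CPM in the stretch libraries, against 251.9, 270.3 and 247.0 CPM in the control libraries. The groups were apart, with stretch replicate 2 the lowest stretch library and control replicate 3 the highest control library. Cct8 had the largest change of the 8, 1.34-fold (log2 0.42 ± 0.05; edgeR adjusted p = 0.000391).

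Across the 8 genes stretch replicate 2 was the lowest stretch library for 7, with replicate 1 lowest for Tcp1, and stretch replicate 4 was the highest for 6. Control replicate 3 was the highest control library for 6 of the 8. The authors' deposited table gives log2 fold changes between 0.31 and 0.42 for the 8 genes, with FDR values between 4.29e-10 and 1.81e-07. Without stretch replicate 1, the library with the most hepatocyte RNA, all 8 were still called, with log2 fold changes from 0.32 to 0.42 and adjusted p of at most 0.00301 in edgeR. Stretch replicates 2 and 4, at 96.0 and 91.9 CPM, still held more hepatocyte marker RNA than any control library, of which the highest had 69.9 CPM. The part that the hepatocyte, macrophage, cholangiocyte, endothelial and sinusoidal marker shifts had in these values was not tested.

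**Figure D1:**
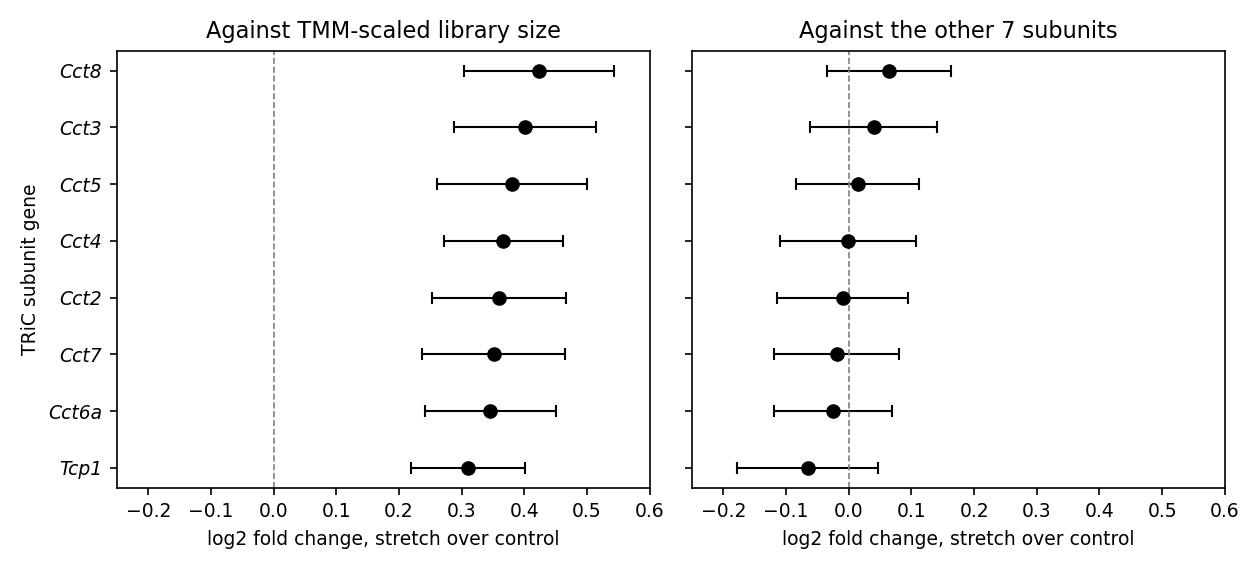
Log2 fold changes (horizontal axis, stretch over control) of the 8 subunit genes with 95% confidence intervals, in edgeR fits on all 6 libraries: against TMM-scaled library size on the left and against the other 7 subunits on the right. On the left all 8 intervals lie above 0, from 0.31 for Tcp1 to 0.42 for Cct8, and on the right all 8 intervals cover 0.

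The changes were of like size. Their median log2 fold change was 0.36, or 1.29-fold, they spanned 0.11 from the smallest to the largest, and their SD was 0.03. Over all 14222 genes the median was -0.01, the interquartile range 0.53 and the SD 0.54. In the histogram of all genes the 8 lines sit on the right flank, where 769 genes, 5.41% of those tested, lay within the same span. Of all genes 20.2% had a larger log2 fold change than Tcp1, and 14.8% a larger one than Cct8, so the subunits rose together by an amount that was not extreme in this comparison. The median absolute log2 fold change was 0.41 over the called genes. Against a minimum of 1.2-fold (glmTreat in edgeR), Cct3, Cct4, Cct5 and Cct8 passed, 4 of 8, where 8.51% of all genes passed as higher. Cct2, Cct6a, Cct7 and Tcp1 did not pass, with adjusted p of 0.0513, 0.0738, 0.0773 and 0.164 in that test.

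**Figure D2:**
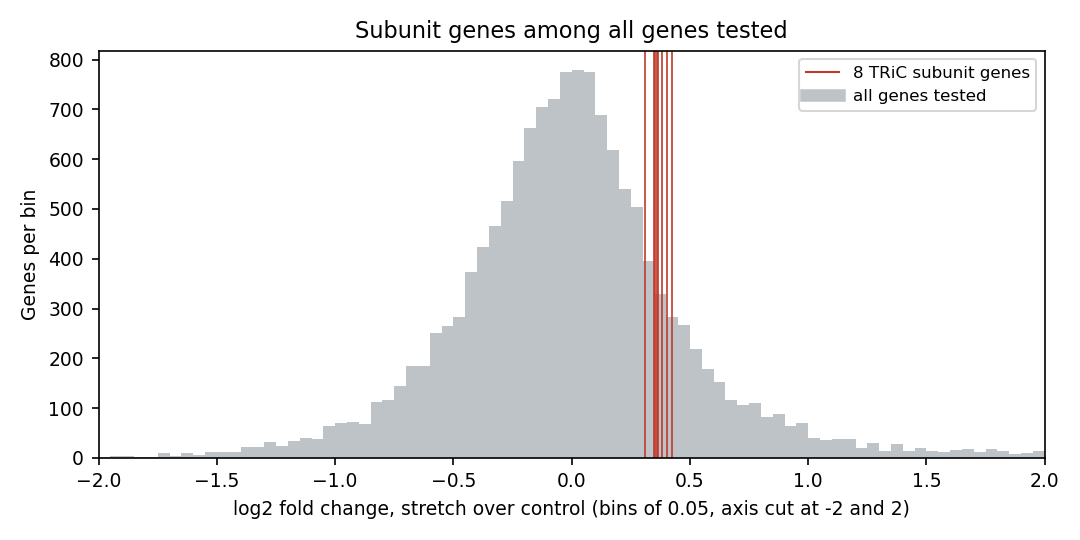
Histogram of the log2 fold change of stretch over control (horizontal axis, bins of 0.05) for the 14222 genes tested, with the number of genes per bin on the vertical axis and a red line for each of the 8 subunit genes. The lines lie between 0.31 and 0.42, to the right of the median of all genes at -0.01, and the axis ends at -2 and 2.

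Each subunit was next set against the other 7, with their geometric mean count in place of library size in edgeR, which asks whether any subunit changed more or less than its partners. No subunit passed at an adjusted p under 0.05, and none had an unadjusted p under 0.05, the lowest being 0.172 for Cct8. In these fits 64.9% of all genes were called in either direction for Cct8, 65.0% for Cct3 and Cct4, 65.2% for Cct2, 65.3% for Cct5 and 65.4% for Cct6a, Cct7 and Tcp1. Cct8 differed from the other 7 by a log2 change of 0.06 with a 95% interval from -0.03 to 0.16 (edgeR adjusted p = 0.221). Its log2 ratio to them was 0.16, 0.14 and 0.16 in the stretch libraries, against 0.07, 0.13 and 0.06 in the control libraries, so that the groups did not overlap. With 3 libraries a group, even such a separation cannot bring an exact permutation p below 0.1. Tcp1 differed by -0.07, with an interval from -0.18 to 0.05 (edgeR adjusted p = 0.269). Its log2 ratio was -0.11, -0.06 and -0.12 in stretch and -0.01, -0.09 and 0.01 in control libraries, which overlapped. Cct3 differed by 0.04, Cct5 by 0.01, Cct4 by -0.00, Cct2 by -0.01, Cct7 by -0.02 and Cct6a by -0.02, and the libraries of the 2 groups overlapped for all 6. These intervals bound the differences within the complex and do not show that the subunits changed alike.

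Levels were compared between subunits by the deposited RPKM, read counts scaled to coding length and to library reads. In stretch libraries the order was Cct2, Cct5, Cct6a, Cct4, Cct3, Cct8, Cct7 and Tcp1. Cct2 had 184.0, 176.0 and 181.1 RPKM in the stretch libraries and 145.1, 152.0 and 150.9 RPKM in the control libraries, and Tcp1 had 110.2, 114.0 and 112.3 RPKM in stretch and 94.6, 95.7 and 98.0 RPKM in control libraries. Between them stood Cct5 with 174.5 ± 5.35 RPKM in stretch and 142.5 ± 5.82 RPKM in control libraries, and Cct4 with 142.2 ± 0.230 RPKM in stretch and 117.1 ± 0.222 RPKM in control libraries (SD, n = 3 each). In control libraries the order was the same except that Cct7, at 103.1 RPKM, stood above Cct8, at 102.2 RPKM. Neighbours whose libraries overlapped were Cct2 with Cct5 and Cct8 with Cct7 in both groups, and Cct4 with Cct3 in control libraries. The highest subunit was between 1.53 and 1.67 times the lowest within a library. Cct6a, with 147.2 ± 2.94 RPKM in stretch and 123.1 ± 3.73 RPKM in control libraries, has a deposited coding length of 1268 bases, on which its place in this order rests, where the other 7 have between 1769 and 2452. In CPM, which are not scaled to length, Cct6a was the lowest of the 8, with means of 208.2 in stretch and 163.8 in control libraries. If the listed length is too short, its RPKM and its place are too high.

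**Figure D3:**
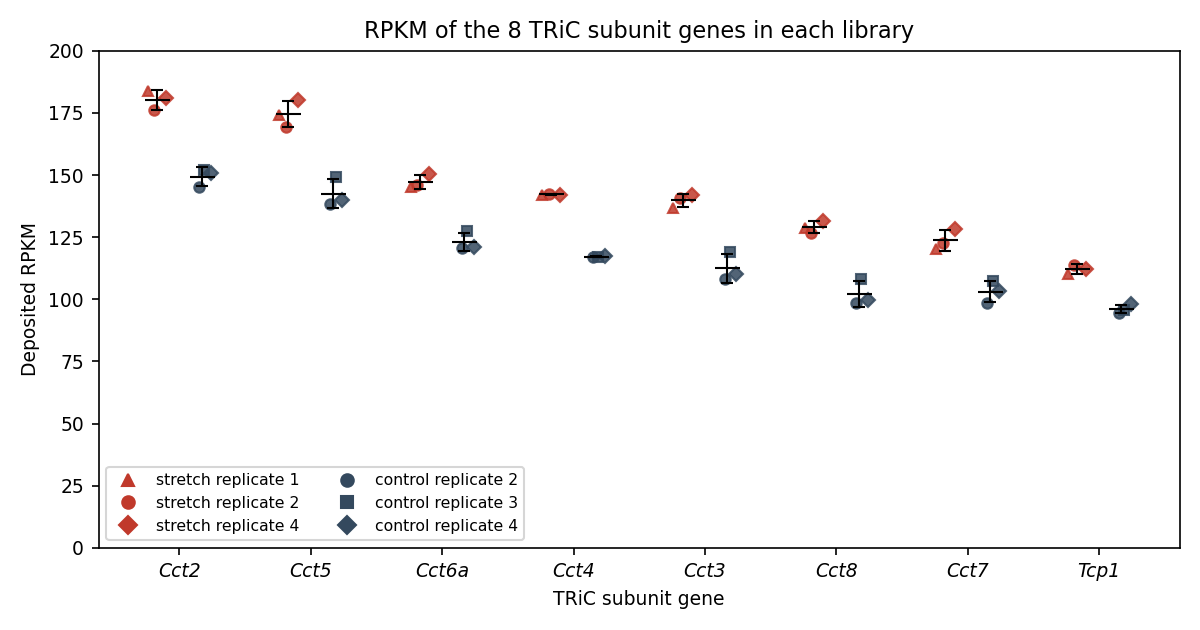
Deposited RPKM (vertical axis) of each subunit gene in each library, stretch in red and control in blue, with mean and SD as bars (n = 3 each) and genes ordered by their stretch mean. For every gene the 3 stretch libraries lie above the 3 control libraries, with means of 180.3 in stretch and 149.4 RPKM in control for Cct2, and of 112.2 in stretch and 96.1 RPKM in control for Tcp1.

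Summed over the 8 genes, RPKM was 1149 ± 16.5 in stretch and 945.8 ± 27.8 in control libraries (SD, n = 3 each), a ratio of 1.21. This ratio is smaller than that of the CPM, which carry TMM factors that the RPKM values do not. The makeup of the sum moved little. Cct8 made up 11.2 ± 0.09% of it in stretch and 10.8 ± 0.25% in control libraries, the largest gain at 0.43 percentage points. It was the only subunit whose shares did not overlap between the groups. With 3 libraries a group, even such a separation cannot bring an exact permutation p below 0.1. Among 8 subunits it therefore does not set Cct8 apart. Tcp1 had the largest loss, with 9.76 ± 0.22% in stretch and 10.2 ± 0.32% in control libraries.

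Some reads of 4 subunits may belong to other genes, as the labels state no strand setting for the counting. In the GENCODE vM21 annotation of GRCm38, Tcp1 shares 571 exonic bases with Acat3 and 141 with Mrpl18, Cct6a shares 452 with Psph, Cct7 214 with Pradc1 and Cct8 192 with Usp16, each on the opposite strand. On the same strand, where a strand setting would not part the reads, Tcp1 shares 138 exonic bases with the small nucleolar RNA gene Gm26130 and Cct6a 102 with Snora15. Cct2, Cct3, Cct4 and Cct5 shared no exonic base with another gene. GENCODE lists 5030 exonic bases for Tcp1, 3620 for Cct6a and 6778 for Cct7, against deposited coding lengths of 2363, 1268 and 2452. Shared bases may therefore lie partly or wholly outside the exons that were counted. Acat3 had a log2 fold change of 0.34 and Usp16 of 0.50, both called, whereas Mrpl18 at -0.14 and Psph at -0.00 did not pass. Of the 50-base words in their transcripts, 15.4% in Cct6a, 13.9% in Tcp1, 4.28% in Cct8, 2.89% in Cct7, 0.793% in Cct3 and 0.364% in Cct4 occurred in another gene, against 0 in Cct2 and Cct5. The changes of Cct2 and Cct5, the subunits with no such words, were 0.36 and 0.38.

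Prefoldin, the hexameric co-chaperone that delivers unfolded actin and tubulin to TRiC, rose in 4 of its 6 subunits, and its median log2 fold change was 0.22. Over all genes tested 21.4% were called higher, 22.6% lower and 56.0% neither, and these shares are the background for this list and the 8 that follow. Pfdn2 had 51.9, 52.7 and 57.4 RPKM in the stretch libraries and 41.1, 43.5 and 42.1 RPKM in the control libraries, without overlap. It rose 1.36-fold (log2 0.44 ± 0.06; edgeR adjusted p = 0.000604). Pfdn4 rose by 0.41 ± 0.08 on the log2 scale (edgeR adjusted p = 0.00479). Pfdn1 and Vbp1 each rose by 0.22 ± 0.05, and both calls were lost when libraries were scaled by their size only (adjusted p of 0.113 for Pfdn1 and 0.0598 for Vbp1). Pfdn1 was also not called in limma on log2(RPKM + 0.5), with adjusted p = 0.0840. Pfdn5, at -0.10 ± 0.05, and Pfdn6, listed under its older symbol H2-Ke2, at 0.05 ± 0.06, did not pass. With library size only, 2 of the 6 were called higher, and Pfdn5 was called lower at -0.19, as it was in limma on RPKM (adjusted p = 0.0134).

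The phosducin-like proteins work with TRiC on particular clients. Txndc9, the thioredoxin domain protein also called PhLP3 and encoded by a gene distinct from Pdcl3, had 18.4, 17.9 and 19.3 RPKM in stretch and 16.0, 16.7 and 16.1 RPKM in control libraries, and rose by 0.28 ± 0.05 (log2; edgeR adjusted p = 0.00277). They stand in a list of 8 tested cofactors and regulators, of which 6 rose and 2 fell, with a median log2 fold change of 0.24. The others in it include the R2TP components Ruvbl1, Ruvbl2 and Pih1d1 and the nucleolar protein Nop56, which are partners in a wide sense only. Nop56, a core protein of the particles that methylate ribosomal RNA, rose 1.90-fold (log2 0.93 ± 0.08; edgeR adjusted p = 8.53e-05). Ruvbl1 and Ruvbl2, the AAA+ ATPases of R2TP, rose by 0.46 ± 0.06 and 0.32 ± 0.05 on the log2 scale. The 2 that fell were Pdcl, which assembles G protein beta subunits with TRiC, at -0.26, and Pih1d1 at -0.22, named after their values were seen. Only 1 gene of the list was called lower without stretch replicate 1, stretch replicate 2 or control replicate 4.

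Among the actin clients, the cytoplasmic actins rose, as did Actr2 and Actr3, the only listed genes of the Arp2/3 complex. The muscle actins Acta2, Acta1 and Actc1, at log2 fold changes of 0.04 ± 0.25, 0.09 ± 0.95 and 0.10 ± 1.26, did not pass. Their SEs were far wider than those of the cytoplasmic actins. Actg1, cytoplasmic gamma actin, had 1829, 1524 and 1729.9 RPKM in the stretch libraries, against 889.3, 987.8 and 980.0 RPKM in the control libraries. All stretch libraries were far above the controls, and the rise was 1.89-fold (log2 0.92 ± 0.08; edgeR adjusted p = 0.000105). Actb, cytoplasmic beta actin, had 1403, 1309 and 1399 RPKM in stretch and 901.2, 969.9 and 1026 RPKM in control libraries, and rose 1.51-fold (edgeR adjusted p = 0.000187). The 2 are near-identical paralogues, so the split of reads between them is uncertain. Actr3, which encodes Arp3 of the complex that nucleates branched actin, had 328, 303 and 306 RPKM in stretch and 164, 181 and 168 RPKM in control libraries, a rise of 0.96 ± 0.06 on the log2 scale (edgeR adjusted p = 4.97e-05). Actr2, which encodes Arp2, rose by 0.35 ± 0.06. In all 4 of the 9 tested rose and 1, Actr1a of dynactin, fell by 0.15, a call that was lost under 6 alternatives that kept no minimum fold.

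Most tubulin genes did not pass. Of 15 tested, 2 rose, 1 fell and 12 did not pass, and the median log2 fold change was -0.02, where 56.0% of all genes did not pass either. With library size only and in limma on RPKM 3 of the 15 were called lower. Tubb6, a beta tubulin isotype, had 204, 171 and 186 RPKM in the stretch libraries and 91.1, 111 and 105 RPKM in the control libraries. The groups were apart, and it rose 1.94-fold (log2 0.96 ± 0.09; edgeR adjusted p = 0.000116). Tuba1c, an alpha tubulin, rose 1.56-fold (log2 0.64 ± 0.05; edgeR adjusted p = 7.98e-05). The more abundant Tubb5, with 303, 303 and 306 RPKM in stretch and 310, 342 and 351 RPKM in control libraries, changed by -0.05 ± 0.05 on the log2 scale, which did not pass. Tubg1, gamma tubulin of the microtubule nucleating complex, fell by 0.41 on the log2 scale (edgeR adjusted p = 0.00705). Isotypes of tubulin are near-identical, so counts of single members are uncertain.

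The cofactors that take tubulin over from TRiC and join it into dimers had 2 of 6 called higher and 2 lower, against 21.4% and 22.6% of all genes, and a median log2 fold change of -0.05. Tbcc rose by 0.35 ± 0.05 and Tbca by 0.23 ± 0.06, whereas Tbcd fell by 0.25 and its regulator Arl2 by 0.25 on the log2 scale. The call of Tbca was lost with library size only, in limma on RPKM and without control replicate 2 (adjusted p of 0.0741, 0.0657 and 0.0593). The call of Arl2 was lost without stretch replicate 1 or 2 or control replicate 3 or 4 (adjusted p between 0.0705 and 0.109). Of 18 tested WD40-repeat proteins and other clients, 5 rose, 2 fell and 11 did not pass, with a median of 0.02, a count near the background of 21.4% higher and 22.6% lower. Without stretch replicate 4 or control replicate 2, with library size only and in limma on RPKM 3 were called higher, and without control replicate 4 only 1 was called lower. Ppp2r2a, a regulatory subunit of protein phosphatase 2A, rose by 0.55 ± 0.05 (edgeR adjusted p = 9.28e-05), Strn3, a striatin, by 0.40 ± 0.04, and Ppp2r2d by 0.26 ± 0.05, and Mlst8 of the mTOR complexes fell by 0.40.

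The mitochondrial chaperonin rose as well. Hspd1, which encodes Hsp60, had 111, 99.9 and 105 RPKM in the stretch libraries and 70.2, 74.9 and 68.0 RPKM in the control libraries, and rose 1.58-fold (log2 0.66 ± 0.06; edgeR adjusted p = 0.000139). Hspe1, its lid Hsp10, rose 1.31-fold (edgeR adjusted p = 0.00295). These were 2 of 5 tested genes in the list of other chaperonins, whose chaperonin-like ciliopathy genes Mkks, Bbs10 and Bbs12 had log2 fold changes of -0.13, -0.32 and 0.03 and did not pass.

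The cytosolic HSP70 and HSP90 partners rose in 8 of 12 with a median log2 fold change of 0.24, and the other 4 did not pass. Hsp90aa1, the inducible HSP90, had 328, 303 and 321 RPKM in stretch and 204, 223 and 202 RPKM in control libraries, and rose 1.61-fold (log2 0.69 ± 0.06; edgeR adjusted p = 0.000111). Hspa8, the constitutive HSP70, rose 1.35-fold, the adaptor Stip1 1.301-fold and the HSP70 exchange factor Hsph1 1.25-fold. The stress-inducible Hspa1a and Hspa1b, at log2 fold changes of 0.11 ± 0.17 and 0.19 ± 0.22, did not pass. Hsf1, the heat shock transcription factor, rose by 0.19 ± 0.06 (edgeR adjusted p = 0.0436), a call that was lost in 9 alternatives besides the minimum fold. Myc, a transcription factor of growth genes, had 218.4 ± 15.9 CPM in stretch and 129.5 ± 3.90 CPM in control libraries (SD, n = 3 each), a rise of 1.69-fold (edgeR adjusted p = 7.46e-05).

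Of 10 tested proliferation genes 1 rose and 2 fell, where 21.4% of all genes rose and 22.6% fell, so the count is no result about the list. Pcna, the clamp of DNA replication, rose by 0.23 ± 0.04, Mki67, the antigen of cycling cells, fell by 0.96 and the replication helicase gene Mcm5 by 0.32 on the log2 scale, 7 did not pass, and the median was -0.28. The call of Mcm5 (edgeR adjusted p = 0.0384) was lost without each stretch replicate and without control replicate 3 or 4 (adjusted p between 0.0733 and 0.134), and in DESeq2 (adjusted p = 0.0522). Over all 9 lists 44 of 89 tested genes were called, or 49.4%, against 44.0% of all genes. Without stretch replicate 1 the lists had 37 called genes, and the calls over all genes numbered 5358, against 6261 with it.

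**Figure D4:**
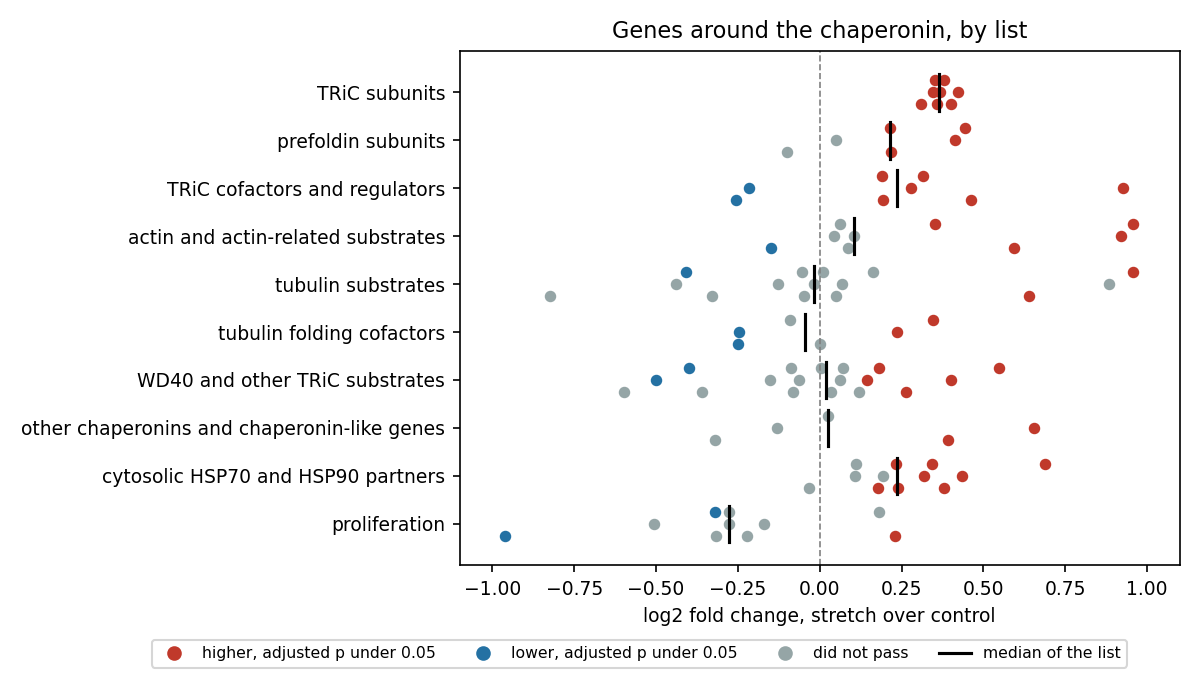
Log2 fold change of stretch over control (horizontal axis) for each tested gene of the TRiC subunits and of the 9 lists around them, coloured by call, with a black line at each list's median. The 8 subunits lie close together near 0.36, the actin and tubulin lists spread from below 0 to 0.96, and the proliferation list has its median at -0.28.

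A fit with the geometric mean count of the 8 subunits as library offset was chosen after seeing the data. In it 5.47% of all genes rose relative to the chaperonin and 59.7% fell. As the subunits themselves rose, a gene without change falls in this fit, and the median log2 fold change of all genes was -0.38. The fit thus gives the main fit again with its zero moved, and a fall here is relative only. Of the actin clients, Actr3 rose by a further 0.59 ± 0.05, Actg1 by 0.55 ± 0.07 and Actb by 0.22 ± 0.06 on the log2 scale (edgeR adjusted p = 4.67e-05, 0.000210 and 0.00811). Tubb6 and Tuba1c rose relative to the subunits by 0.59 ± 0.08 and 0.27 ± 0.06 (edgeR adjusted p = 0.000251 and 0.00389). Of the 15 tubulin genes 10 fell, where 59.7% of all genes fell. Among the partners, Nop56 rose by 0.56, Hsp90aa1 by 0.32, Hspd1 by 0.29 and Ppp2r2a by 0.18. Pfdn2, at 0.08 with adjusted p = 0.251, and Pfdn4, at 0.05 with adjusted p = 0.630, did not pass this edgeR test. The other 4 prefoldin genes fell relative to the subunits, where 59.7% of all genes did. Actr2, Hspa8, Stip1 and Hspe1 had differences of -0.02, 0.06, 0.01 and 0.03 that did not pass.

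The genes whose pattern over the 6 libraries came nearest to the mean of the subunits were Bcl2l1, Txnl1, Mettl6, Pcgf5 and Cfl2, among 11128 genes with a mean log2 CPM of at least 1. Likeness was the root mean square difference of centred log2 CPM, and it was 0.0149 for Bcl2l1, which encodes the survival factor Bcl-xL, and 0.0175 for Cfl2, an actin-severing cofilin. For comparison it was 0.0143 for Cct6a and 0.0427 for Tcp1, although each subunit is itself part of the mean. For Tcp1 165 genes outside the complex lay nearer to the mean than it did, for Cct8 81 and for Cct5 8, so that the pattern was also present outside TRiC. The 5 genes rose with stretch by log2 fold changes between 0.34 and 0.38, which follows from choosing them by likeness to the subunits.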

How the data were processed

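The 6 TruSeq libraries of cultured liver sinusoidal endothelium, 3 stretch and 3 control, were grouped by the sample labels. The authors deposited whole-number counts per gene, made on GRCm38 (mm10) with tools that, per the submitters' processing notes, were featureCounts, TopHat2 2.1.0 and edgeR. The sources used here give no annotation, filter or strand option for them. The deposited RPKM values are per kilobase of the listed coding length. The authors' deposited table also holds log2 fold changes, the likelihood ratio as a score, and p-value and FDR columns.

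The test was the edgeR 4.0.16 quasi-likelihood F test (R 4.3.3, TMM scaling, filterByExpr), Benjamini-Hochberg adjusted over 14222 of 23337 genes, with calls at an adjusted p under 0.05. TMM factors were 0.953, 0.991 and 0.961 in stretch libraries 1, 2 and 4. In control libraries 2, 3 and 4 they were 1.020, 1.034 and 1.045, so the factors split by group. As alternatives, scaling was by RLE factors, upper-quartile factors or library size only, the filter was none or 1 CPM in 3 samples, and other fits were DESeq2 1.42.0, limma-voom and limma 3.58.1 on log2(RPKM + 0.5), glmTreat against 1.2-fold, a replicate block and each library left out. Intervals from counts cover counting error only.

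The subunits, the 9 lists and the tests were chosen with earlier results of these data known. Named genes were all subunits, Cct6b, all tested prefoldin genes, in each other list up to 4 called genes of smallest p, the 5 genes nearest in pattern, Hsf1 and Myc. Other genes were named after their values were seen. Nearest genes used log2 CPM with a prior count of 2. The steps were tested on simulated counts for stretch against control over 14222 genes with 200 changed. Of these, 14% were recovered at 1.3-fold, 65.3% at 1.5-fold, 92% at 2-fold and 100% at 4-fold. These genes were simulated with a coefficient of variation between libraries of 0.12 beyond counting error, near the value fitted over all genes. CPM of the subunits varied by 0.740% to 4.89% in control and 0.985% to 4.71% in stretch libraries (SD over mean). The recovery rates therefore do not apply to the subunits. Transcript overlaps and shared words came from GENCODE vM21, and windows around gene starts from RefSeq.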

Additional observations from a re-analysis of the deposited data

How the results depend on the processing

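The 8 subunits were called higher under every alternative except the minimum fold of 1.2 (glmTreat), under which 4 were called. That test also called 2537 genes in all, 1210 higher and 1327 lower, and 15 genes of the 9 lists. Under the others the largest adjusted p of a subunit was 0.0062, without control replicate 2. The median log2 fold change of the subunits was 0.27 with library size only and 0.27 in limma on log2(RPKM + 0.5), and between 0.35 and 0.40 with a library left out, the highest without stretch replicate 2. Library size only moved the median of all genes by -0.09, and called 2091 genes higher and 4299 lower, where TMM called 3040 higher and 3221 lower. H2-Ke2 turned to -0.042 with library size only and to -0.036 in limma on RPKM, which called 2052 genes higher and 4237 lower. With a replicate block, numbers 2 and 4 being shared, all 8 subunits were called at log2 fold changes between 0.31 and 0.46, and 5568 genes were called, while Arl2, Mcm5 and Hsf1 were not (adjusted p of 0.0589, 0.152 and 0.0582). In their deviations from the mean of their group, same-numbered libraries correlated at 0.21 (number 2) and 0.11 (number 4) across genes. Deviations of stretch and control libraries of different number correlated at between -0.20 and 0.18, the highest for stretch 1 with control 3. Within a group the deviations of a gene cancel out, so these correlations depend on each other. Only 2 pairs share a number, and the labels do not tie a number to an isolation. With 3 libraries a group, an exact permutation test of a single value cannot go below 0.1.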
